A study of Bos taurus with 12 samples.

Results

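Macrophages are the most numerous leukocytes of the healthy heart wall, and monocytes from the blood can add to them when the wall is injured or overloaded. Both kinds of cell respond to the cytokine CSF1 through its receptor CSF1R, a tyrosine kinase that carries the signal for survival and growth. Macrophages also make the 3 chains of C1q, the recognition part that starts the classical complement pathway. Both kinds of cell carry surface and lysosomal proteins that are used as their markers. The 10 genes described here are CSF1R and CSF1, the lipopolysaccharide co-receptor CD14, the lysosomal glycoprotein CD68, C1QA, C1QB and C1QC, the haemoglobin scavenger receptor CD163, the hyaluronan receptor LYVE1 and the calcium-binding actin regulator AIF1, also called IBA1. They were chosen by symbol from the 24616 genes deposited. Each symbol stood on 1 row, and all 10 were among the 11374 genes with at least 1 RPKM (reads mapped to a gene's exons, divided by exon length and library depth) in at least 3 libraries. CSF1 met that minimum through the groups where it was high, since only 2 of 6 control libraries reached it.

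The libraries came from the right ventricle of 12 wild-type Angus steers, 1 library per animal, and the tissue was whole heart muscle rather than sorted cells. All animals lived in chronic hypoxia at 2170 m (7120 ft), were castrated at weaning at 6 to 8 months, and were slaughtered at 13 to 15 months. Mean pulmonary artery pressure (PAP) measured by right heart catheterization and clinical signs put 6 animals in the low PAP group, 3 in the group with pulmonary hypertension without heart failure (PH-healthy) and 3 in the group with pulmonary hypertension and right heart failure (PH-failure). The low PAP animals are hypoxia-tolerant controls and shared the altitude, so no group is free of hypoxia. Depth recovered from the RPKM steps was 14739237 to 31090198 mapped reads per library, and the shallowest was PH-failure replicate 1. The 10 genes had between 13 reads (CSF1) and 3537 reads (CD163) in a library. In whole tissue, more cells of a type and more RNA per cell cannot be told apart.

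PH-failure replicate 3 stands apart in these genes and touches most of what follows. It had the highest level of 12 libraries in 8 of the 10 genes, and a summed level of 199.7 RPKM against 51.6 to 120.8 RPKM in the other 11. The same library had the highest mean log2(RPKM + 1) of the adipocyte markers ADIPOQ, CIDEC and FABP4, at 6.43. That score was 5.16 and 2.21 in the other two PH-failure libraries, 1.58 to 5.53 at low PAP and 0.998 to 1.13 in PH-healthy animals. In a fit that also held this score, 3 of the 10 genes were called higher in PH-failure than at low PAP (CSF1R, CSF1 and CD14). Of the 11374 tested genes, 2772 were called higher there. In PH-healthy 2 of the 10 were (CSF1 and CD14), and 976 of all tested genes. With both hypertensive groups pooled against low PAP, that fit called 6 of the 10 and 4150 of all tested genes higher. The part of fat tissue in the results was not tested further.

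**Figure D1:**
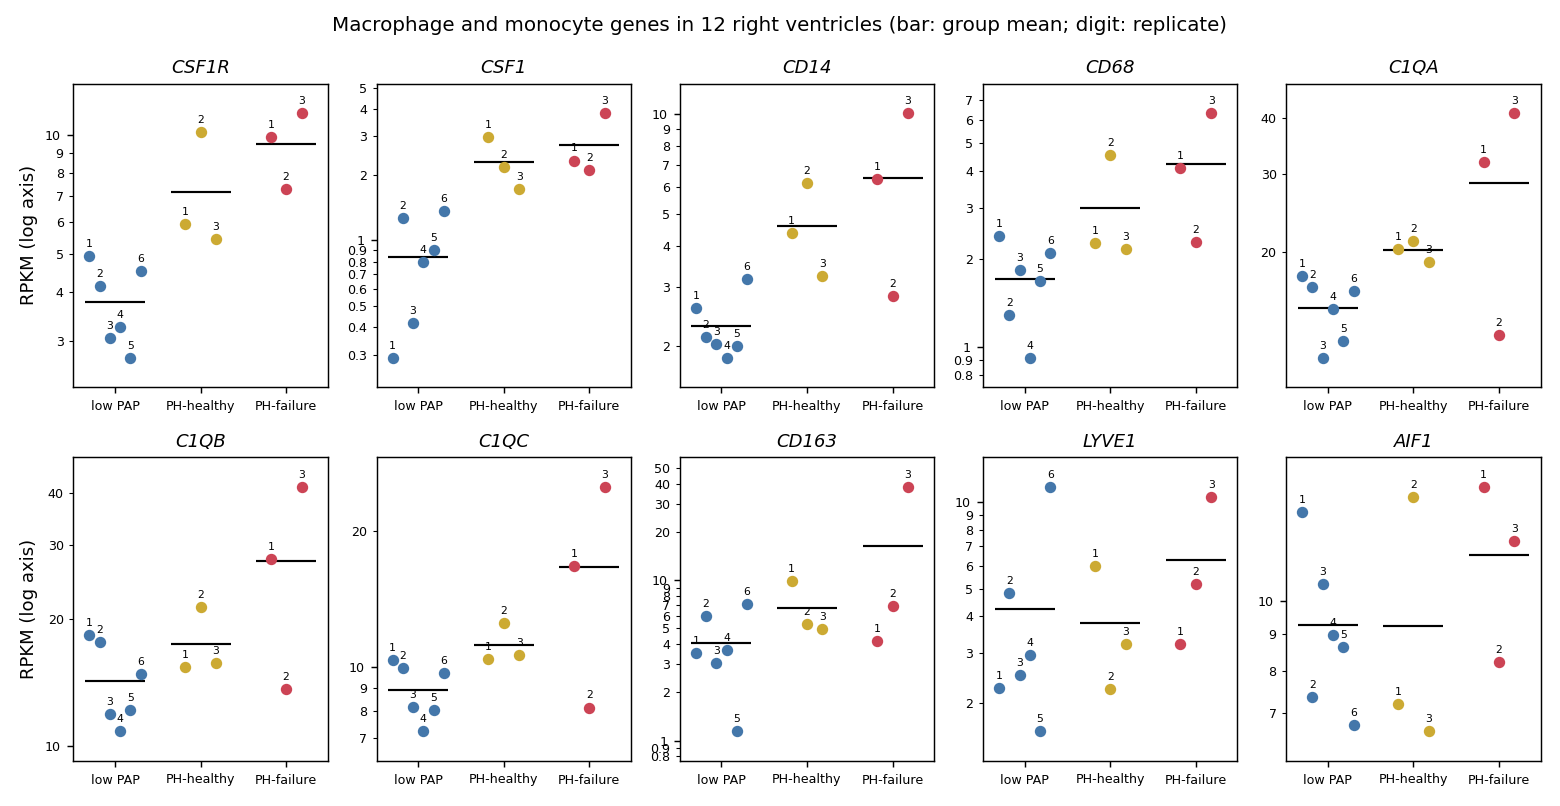
RPKM of each gene (log axis) in each library, by group, with a bar at the group mean and the replicate number above each point. CSF1R and CSF1 do not overlap between low PAP and either hypertensive group, and PH-failure replicate 3 is the top point in 8 of the 10 panels.

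The receptor and its ligand rose in both hypertensive groups. CSF1R (chromosome 7, 63379474 to 63410973; genome build not given in the sources used here) ranged from 2.73 to 4.93 RPKM at low PAP, with a median of 3.70. It was 5.93, 10.2 and 5.44 RPKM in the PH-healthy animals and 9.86, 7.27 and 11.4 RPKM in the PH-failure animals. All 6 hypertensive ventricles therefore lay above all 6 low PAP ventricles, as they did in 13.8% of all tested genes. Means were 3.77 ± 0.886 RPKM (SD, n = 6) at low PAP, 7.18 ± 2.60 (SD, n = 3) in PH-healthy and 9.49 ± 2.06 (SD, n = 3) in PH-failure. In limma's moderated test on log2(RPKM + 1), which understates the change of low genes, CSF1R rose by 1.14 ± 0.20 (SE) in PH-failure against low PAP (adjusted p = 0.00311, Benjamini-Hochberg over all tested genes). The rise in PH-healthy was 0.75 ± 0.20 (SE, adjusted p = 0.0154). Without PH-healthy replicate 2, the highest of its group, CSF1R differed by 0.51 in PH-healthy and no longer passed (limma adjusted p = 0.0865).

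CSF1 (chromosome 3, 33607138 to 33621030) ranged from 0.291 to 1.37 RPKM at low PAP, with a median of 0.854. It was 2.96, 2.16 and 1.72 RPKM in PH-healthy and 2.32, 2.09 and 3.83 RPKM in PH-failure. The lowest hypertensive ventricle again lay above the highest low PAP ventricle. The mean was 0.842 ± 0.435 RPKM (SD, n = 6) at low PAP, and the ratio of means was 2.71 for PH-healthy and 3.27 for PH-failure. CSF1 rose by 1.03 ± 0.21 (SE, limma adjusted p = 0.00577) in PH-failure and by 0.85 ± 0.21 (SE, limma adjusted p = 0.0112) in PH-healthy. Without PH-healthy replicate 1 the PH-healthy difference was 0.71 and missed the threshold (limma adjusted p = 0.0641). In PH-failure against low PAP, CSF1R and CSF1 passed in all 26 alternative fits, with adjusted p up to 0.0381 and 0.0352. In the authors' deposited table, which compares high with low PAP, CSF1R had a fold of 2.03 (p = 0.0153, false discovery rate 0.219) and CSF1 a fold of 2.51 (p = 0.134).

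CD14 and CD68 mark monocytes and macrophages, CD14 at the surface and CD68 in the lysosome. CD14 (chromosome 7, 53446105 to 53448979) ranged from 1.84 to 3.19 RPKM at low PAP, with a median of 2.07. It was 4.37, 6.18 and 3.25 RPKM in PH-healthy and 6.37, 2.82 and 10.1 RPKM in PH-failure. PH-failure replicate 2 fell inside the low PAP range, and the other 5 hypertensive ventricles lay above it. Means were 2.29 ± 0.508 RPKM (SD, n = 6) at low PAP, 4.60 ± 1.48 (SD, n = 3) in PH-healthy and 6.42 ± 3.62 (SD, n = 3) in PH-failure. CD14 rose by 1.05 ± 0.27 (SE, limma adjusted p = 0.0135) in PH-failure and by 0.75 ± 0.27 (SE, limma adjusted p = 0.0475) in PH-healthy. The PH-failure difference was 0.70 without replicate 3 of that group (limma adjusted p = 0.076). The PH-healthy call for CD14 was lost in 9 of 12 fits that each left out 1 animal, with limma adjusted p up to 0.1995; it held without low PAP replicate 6 and without PH-failure replicates 2 or 3.

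CD68 (chromosome 19, 27921926 to 27923997) ranged from 0.918 to 2.40 RPKM at low PAP, with a median of 1.76. It was 2.28, 4.55 and 2.17 RPKM in PH-healthy and 4.11, 2.29 and 6.33 RPKM in PH-failure. In each hypertensive group at least 1 animal overlapped the low PAP range. Means were 1.70 ± 0.537 RPKM (SD, n = 6), 3.00 ± 1.34 (SD, n = 3) and 4.24 ± 2.03 (SD, n = 3) in the order low PAP, PH-healthy, PH-failure. CD68 rose by 0.91 ± 0.26 (SE, limma adjusted p = 0.0201) in PH-failure, and this call was lost without PH-failure replicate 3 (0.63, limma adjusted p = 0.112). In PH-healthy it differed by 0.54 ± 0.26 (SE) and did not pass (limma adjusted p = 0.116).

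The 3 C1q chains lie side by side on chromosome 2, with C1QB at 130769171 to 130775911, C1QC at 130783986 to 130788357 and C1QA at 130792854 to 130795743. By their mean over the 12 libraries they were the most abundant of the 10 genes per length, and together made up 50.1 to 63.8% of the summed RPKM of the 10 genes in a library. C1QA ranged from 11.6 to 17.7 RPKM at low PAP with a median of 15.7, and was 20.4, 21.3 and 19.0 RPKM in PH-healthy. In PH-failure C1QA was 31.8, 13.1 and 41.0 RPKM. PH-failure replicate 2 lay inside the low PAP range, while the other two were the highest of all 12 ventricles.

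C1QB ranged from 10.8 to 18.3 RPKM at low PAP with a median of 13.5. It was 15.4, 21.4 and 15.7 RPKM in PH-healthy and 27.8, 13.6 and 41.3 RPKM in PH-failure. As with C1QA, PH-failure replicate 2 lay inside the low PAP range. C1QB had means of 14.3 ± 3.17 RPKM (SD, n = 6) at low PAP, 17.5 ± 3.36 (SD, n = 3) in PH-healthy and 27.6 ± 13.8 (SD, n = 3) in PH-failure. C1QC ranged from 7.22 to 10.4 RPKM at low PAP with a median of 8.94, and was 10.4, 12.5 and 10.6 RPKM in PH-healthy and 16.7, 8.16 and 24.98 RPKM in PH-failure. C1QC had means of 8.92 ± 1.26 RPKM (SD, n = 6), 11.2 ± 1.17 (SD, n = 3) and 16.6 ± 8.41 (SD, n = 3) in the same order. All 3 chains rose in PH-failure against low PAP, C1QA by 0.76, C1QB by 0.80 and C1QC by 0.71 (limma adjusted p = 0.0414, 0.0394 and 0.0394). The calls lay close to the threshold. Leaving out PH-failure replicate 3 gave 0.44, 0.45 and 0.37 (limma adjusted p = 0.225, 0.218 and 0.223). They were also lost for all 3 chains without PH-failure replicate 1 (limma adjusted p = 0.125 for C1QA, 0.093 for C1QB and 0.0944 for C1QC), without PH-healthy replicate 1 (0.0539, 0.0501 and 0.0513) and without low PAP replicates 3, 4 or 5 (up to 0.0799, 0.0751 and 0.0744). For C1QA the call also went without PH-healthy replicates 2 or 3 (0.0521 and 0.0524), and for C1QC without PH-healthy replicate 3 (0.0502). In PH-healthy none of the 3 passed, although C1QA and C1QC did not overlap the low PAP range, C1QC narrowly (lowest PH-healthy animal 10.42, highest low PAP animal 10.37 RPKM). C1QA there differed by 0.42 ± 0.26 (SE, limma adjusted p = 0.228), which became 0.0413 without PH-failure replicate 2, a library outside that contrast that shares its estimate of spread. C1QA in PH-healthy also passed when only the 2 groups compared were fitted (limma adjusted p = 0.0309).

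CD163 and LYVE1 are carried by resident macrophages of the heart, and LYVE1 is also a marker of lymphatic endothelium. CD163 (chromosome 5, 102245936 to 102278444) ranged from 1.14 to 7.08 RPKM at low PAP, with a median of 3.59. It was 9.85, 5.34 and 4.96 RPKM in PH-healthy and 4.18, 6.85 and 38.3 RPKM in PH-failure. Of the PH-failure ventricles, replicate 3 lay above the low PAP range and the other two inside it. The means of 4.07 ± 2.13 RPKM (SD, n = 6) at low PAP and 16.4 ± 19.0 (SD, n = 3) in PH-failure reflect that spread. The PH-failure difference of 1.33 ± 0.54 (SE) did not pass (limma adjusted p = 0.0741), nor did that of 0.67 in PH-healthy (limma adjusted p = 0.349). It was 0.45 without PH-failure replicate 3, and 1.91 without PH-failure replicate 1, where it passed (limma adjusted p = 0.0225). It also passed without low PAP replicates 2 and 6 together (1.67, limma adjusted p = 0.0390).

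LYVE1 (chromosome 15, 42678183 to 42692464) ranged from 1.60 to 11.3 RPKM at low PAP, with a median of 2.72. It was 5.97, 2.24 and 3.21 RPKM in PH-healthy and 3.21, 5.20 and 10.4 RPKM in PH-failure. The groups overlapped throughout, and the highest ventricle of all was low PAP replicate 6. The differences from low PAP were 0.57 ± 0.44 (SE, limma adjusted p = 0.327) in PH-failure and 0.02 ± 0.44 (SE, limma adjusted p = 0.979) in PH-healthy. The PH-failure difference passed in 1 of 26 alternative fits, without low PAP replicates 2 and 6 together (1.02, limma adjusted p = 0.0273). The sign in PH-healthy changed in 10 of 26.

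AIF1 (chromosome 23, 27503182 to 27505457) was called in neither group. It ranged from 6.73 to 13.3 RPKM at low PAP with a median of 8.80. In PH-healthy it was 7.21, 14.0 and 6.60 RPKM, and in PH-failure 14.4, 8.23 and 12.1 RPKM. Both hypertensive groups overlapped the low PAP range, and the means were 9.26 ± 2.39 RPKM (SD, n = 6) at low PAP, 9.26 ± 4.08 (SD, n = 3) in PH-healthy and 11.6 ± 3.13 (SD, n = 3) in PH-failure. AIF1 differed by 0.29 ± 0.24 (SE, limma adjusted p = 0.357) in PH-failure and by -0.04 ± 0.24 (SE, limma adjusted p = 0.914) in PH-healthy, the latter changing sign in 5 of 26 alternative fits. The 95% intervals of these differences, -0.23 to 0.82 and -0.57 to 0.49, leave room for a rise or a fall.

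In all, 7 of the 10 genes were called higher in PH-failure than at low PAP, where 28% of all tested genes were called higher, 5.79% lower and 33.8% either way. In PH-healthy 3 of 10 were (CSF1R, CSF1 and CD14), against 26.6% of all tested genes called higher, 8.15% lower and 34.7% either way, so that share is near the background. The median difference of the 10 genes was 0.85 in PH-failure and 0.48 in PH-healthy, and the median over all tested genes was 0.21 and 0.18. In PH-failure 10 of 10 differences lay above 0, as did 70.8% of all tested genes, and in PH-healthy 9 of 10 against 66.6%. Groups did not overlap for 2 genes in PH-failure (CSF1R and CSF1), where 18.6% of all tested genes were higher without overlap. In PH-healthy this held for 5 genes (CSF1R, CSF1, CD14, C1QA and C1QC) against 25% of all tested genes. Both comparisons use the same 6 low PAP animals. The counts of this paragraph include CSF1, which met the minimum of 1 RPKM through the hypertensive groups. With both hypertensive groups pooled against low PAP, 6 of the 10 were called higher (CSF1R, CSF1, CD68, CD14, C1QA and C1QC) where 37.3% of all tested genes were, and 47.7% were called either way. All 10 differences lay above 0 there, as did 69% of all tested genes. CSF1R and CSF1 were the 2 genes higher without overlap there, against 13.8% of all tested genes.

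**Figure D2:**
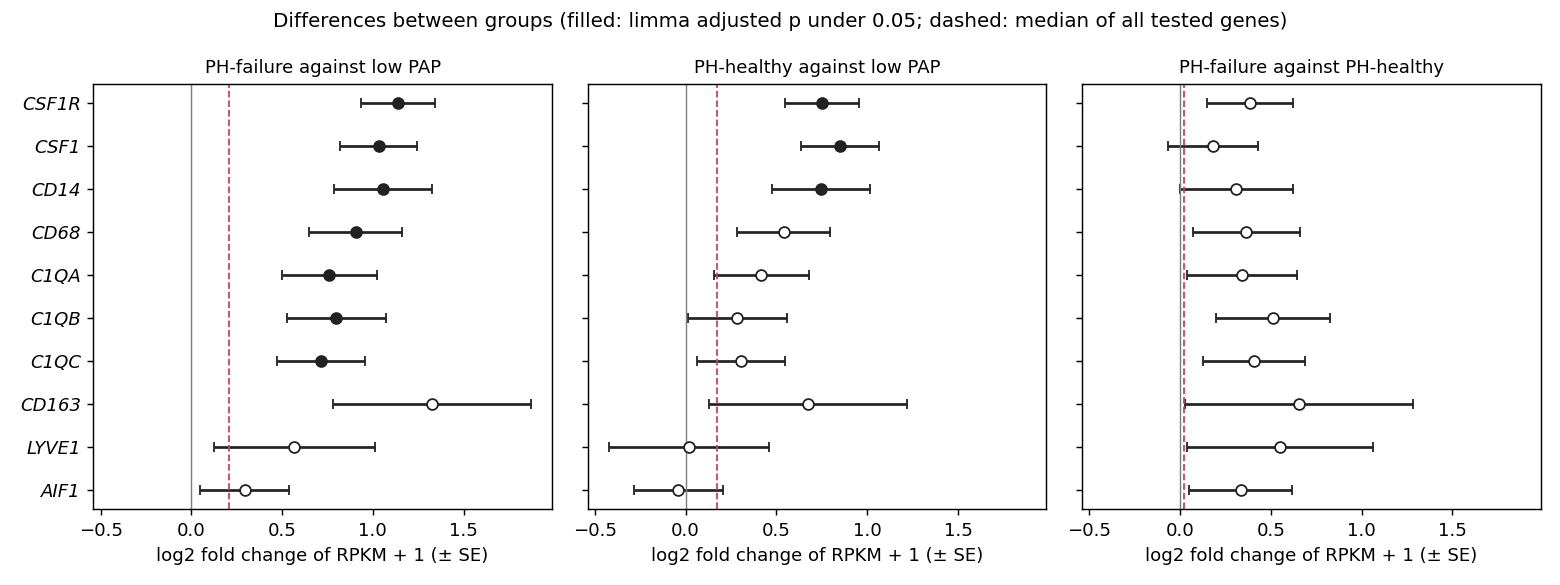
Log2 fold change of RPKM + 1 with its standard error for each gene in 3 comparisons, filled where the limma adjusted p was under 0.05, with the median of all tested genes as a dashed line. There are 7 filled points in PH-failure against low PAP, 3 in PH-healthy against low PAP and 0 in PH-failure against PH-healthy.

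The calls depended on how libraries were scaled. Mitochondrial reads were 22.5 to 29.9% of exon reads at low PAP and 17.8 to 20.7% in the hypertensive ventricles. With RPKM as deposited, 3190 genes were called higher and 658 lower in PH-failure. After quantile normalization these became 1133 and 1418, and after median-ratio scaling 1530 and 1681. The same scalings moved the median of all genes from 0.21 to -0.03 and 0.01. Scaling to non-mitochondrial reads gave 2332 higher and 955 lower calls. Of the 10 genes, CSF1R and CSF1 stayed higher under quantile normalization, and CSF1R, CSF1, CD68 and CD14 under median-ratio and under non-mitochondrial scaling. In PH-healthy, the 3024 higher and 927 lower calls became 1424 and 1622 under quantile normalization, 1824 and 1861 under median-ratio scaling and 2441 and 1278 under non-mitochondrial scaling. CSF1 alone of the 10 passed there under quantile normalization, and CSF1R and CSF1 under the others. None of the 10 genes was called lower under these 3 scalings.

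**Figure D3:**
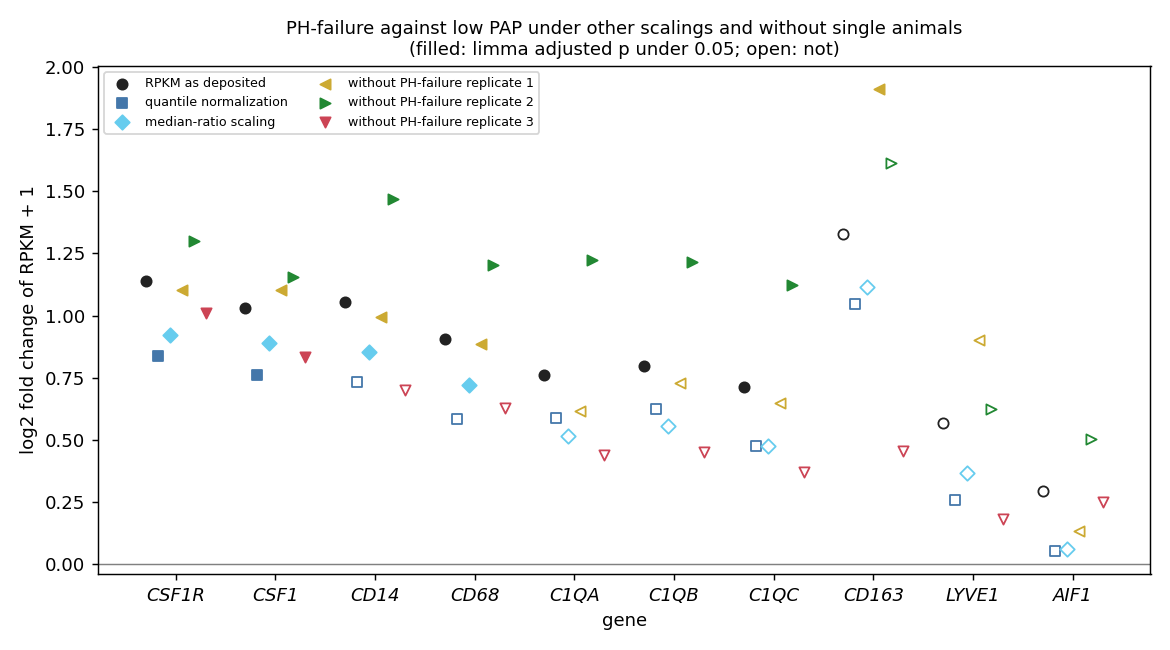
Log2 fold change of RPKM + 1 in PH-failure against low PAP for each gene, with the RPKM as deposited, under other scalings and without each PH-failure animal in turn; filled points had a limma adjusted p under 0.05. CSF1R and CSF1 are filled under all 6 settings, while the C1q chains are filled only with the RPKM as deposited and without PH-failure replicate 2.

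None of the 10 genes was called between the 2 hypertensive groups. Differences of PH-failure from PH-healthy ran from 0.18 (CSF1) to 0.65 (CD163) on the log2 scale, and the smallest limma adjusted p was 0.9995. None of the 10 had an unadjusted p under 0.05, as 308 of all tested genes did. Among all tested genes 1, or 0.00879%, was called by limma-trend and 0 by limma-voom on recovered reads. The 95% intervals were wide, for example -0.12 to 0.89 for CSF1R and -0.71 to 2.01 for CD163, so a difference of some size remains possible. For none of the 10 genes did all PH-failure animals exceed all PH-healthy animals, whereas all did in 3.61% of all tested genes. All 10 differences were above 0, as were 55.9% of all tested genes, but without PH-failure replicate 3 only 7 were, and CSF1, CD163 and CD14 turned to -0.02, -0.22 and -0.04.

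The labels' descriptions number the libraries as series 55 or 56, without saying what a series is. PH-failure replicate 3 is the only PH-failure library of series 55. Within series 56, which holds the other two PH-failure animals and 3 low PAP animals, all 10 genes were above low PAP, by 0.17 to 0.90, and 9 of 10 were above the median of all tested genes (0.20). Within series 55 they were above by 0.46 to 3.25, in 1 PH-failure animal against 3, where the median of all tested genes was 0.24. For PH-healthy, 9 of 10 genes were above low PAP in each series, and 9 in series 55 and 7 in series 56 were above the median of all tested genes (0.16 and 0.19). Between the hypertensive groups, 10 of 10 genes were above PH-healthy in the 1 PH-failure animal of series 55, and 6 of 10 in series 56, where CD163 differed by -0.77.

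**Figure D4:**
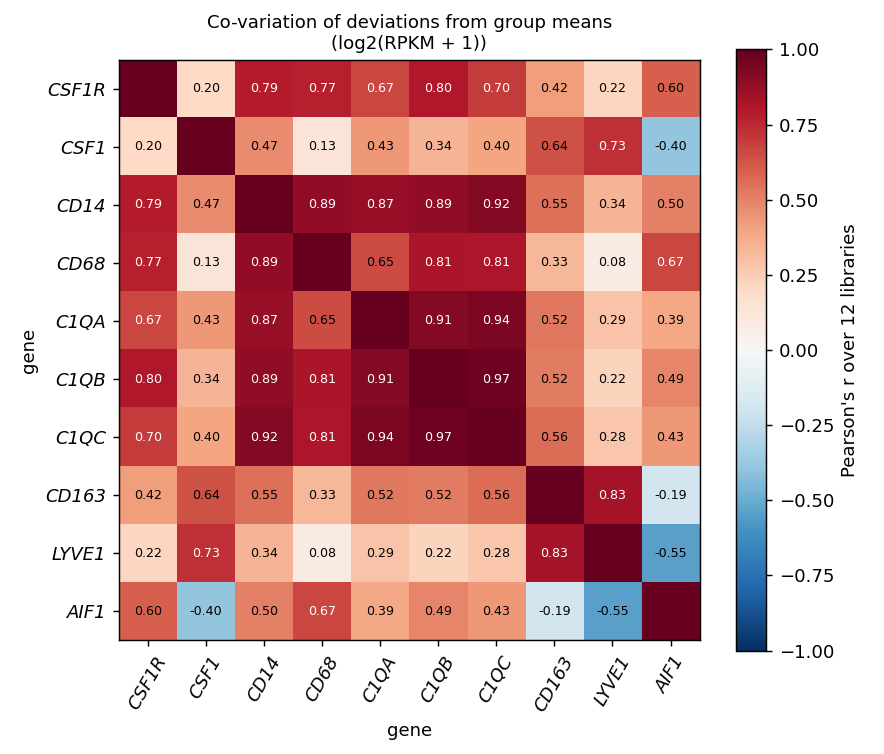
Pearson's r between pairs of genes over 12 libraries, computed on deviations of log2(RPKM + 1) from the group means. The C1q chains with CD14, CD68 and CSF1R form a block of high values, CD163, LYVE1 and CSF1 have 0.64 to 0.83 with each other, and AIF1 is negative with LYVE1.

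Animals within a group also differed from each other. After subtracting group means, the C1q chains varied together across the 12 libraries (r = 0.91 to 0.97), and CD14 varied with each of them (r = 0.87 to 0.92) and with CD68 (r = 0.89). CD163 varied with LYVE1 (r = 0.83, and 0.88 without PH-failure replicate 3) but not closely with CD68 (r = 0.33). CD163 had r = 0.56 with C1QC, 0.55 with CD14 and 0.42 with CSF1R over the 12 libraries, and -0.01, 0.08 and 0.28 without PH-failure replicate 3. CSF1 had r = 0.73 with LYVE1 and 0.64 with CD163. LYVE1 and AIF1 ran in opposite directions (r = -0.55). CSF1 and CSF1R had r = 0.79 on the values, which hold the differences between groups, and 0.20 on the deviations. These are descriptions over libraries that differ in depth and, for the C1q chains, over neighbouring genes.

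Plain ratios of RPKM within a library do not depend on its scaling, whereas the tested log2 ratios with 1 RPKM added do. The ratio of AIF1 to CSF1R was 1.49 to 3.46 at low PAP, 1.21 to 1.37 in PH-healthy and 1.07 to 1.46 in PH-failure, with no overlap between low PAP and the others. On the log2 scale with 1 RPKM added it was lower by 0.84 in PH-failure and 0.79 in PH-healthy (-0.84 and -0.79; exact two-sided permutation p = 0.0357 for each, adjusted 0.375 over 21 tests). The smallest p that 6 against 3 animals allows is 0.0119, and 3 against 3 allows 0.1. On that scale the lowest low PAP and the highest PH-failure animal overlapped. None of the 21 tests passed after adjustment. With the smallest p values given above, no single test could have passed alone, and no test of 3 against 3 could have passed. The ratio of CSF1 to CSF1R averaged 0.230 ± 0.109 (SD, n = 6) at low PAP, 0.343 ± 0.146 (SD, n = 3) in PH-healthy and 0.287 ± 0.0510 (SD, n = 3) in PH-failure. The sign of its PH-failure difference depended on the amount added, at -0.11 with 1 RPKM and 0.38 with 0.1 RPKM. C1QC averaged 0.633, 0.647 and 0.601 times C1QB in the same order. C1QA averaged 1.07, 1.18 and 1.03 times C1QB, from 0.950 to 1.38 across libraries.

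**Figure D5:**
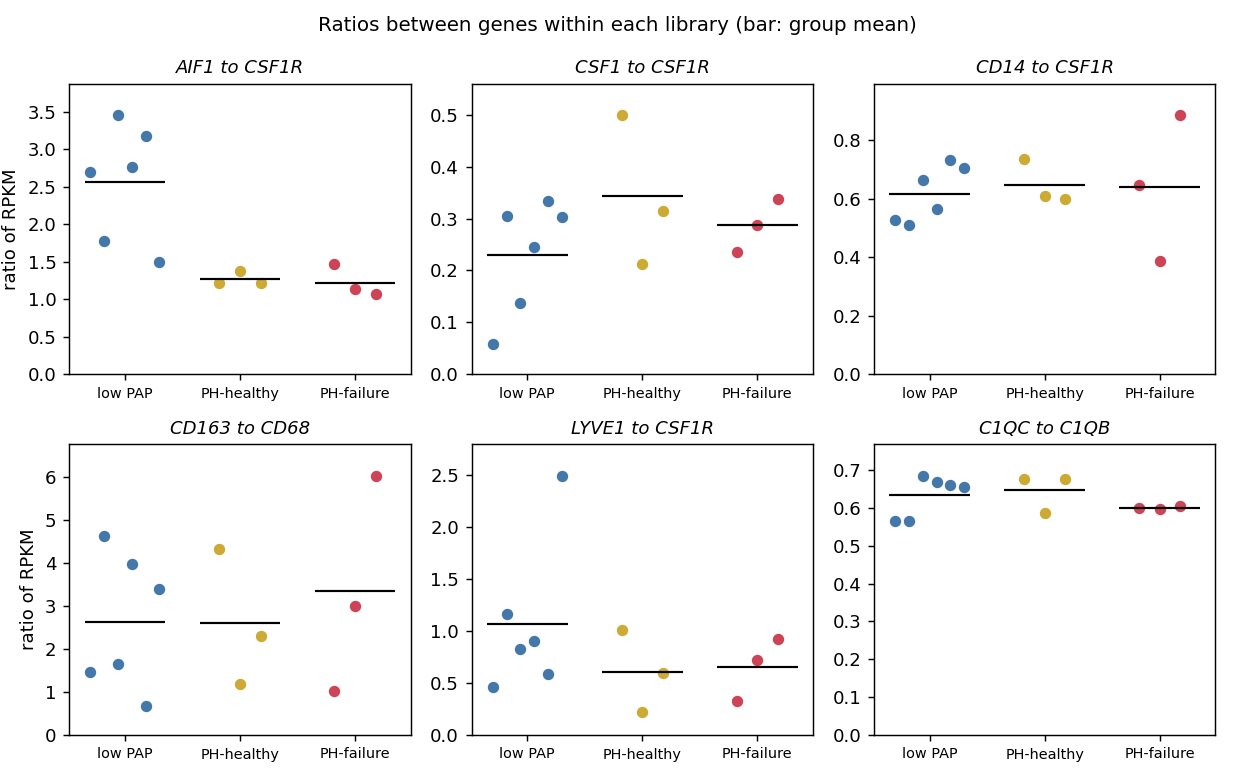
Ratio of RPKM between pairs of genes within each library, by group, with a bar at the group mean. AIF1 to CSF1R lies at 1.49 or more in all low PAP animals and at 1.46 or less in all hypertensive animals, while CD14 to CSF1R and C1QC to C1QB overlap between groups.

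The counts for the gene lists that follow are to be read against 28% of all tested genes called higher in PH-failure and 26.6% in PH-healthy. Without PH-failure replicate 3 the first share was 11.3%, from 1283 genes. Under quantile normalization 1133 of the 11374 tested genes were called higher in PH-failure and 1424 in PH-healthy. Median-ratio scaling gave 1530 and 1824, and list counts under a scaling are to be read against these. Counts include those of the 10 genes that stand on a list. They also include genes that, like CSF1, reached 1 RPKM in fewer than 3 low PAP libraries and met the minimum through the hypertensive groups, so their number is given.

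Of 11 tested genes of the CSF1 pathway, 5 were called higher in PH-failure and 4 in PH-healthy, with medians of 0.32 and 0.29. Without CSF1 and CSF1R the counts were 3 of 9 and 2 of 9, near the shares over all tested genes. Of the 11, 4 met the minimum through the hypertensive groups (CSF1, SPI1, MAF and PIK3CG). Besides CSF1 and CSF1R the genes called in either group were MAF, a transcription factor of macrophages, TYROBP, the adaptor also called DAP12, and GRB2, an adaptor of tyrosine kinases. MAF rose from 0.943 ± 0.325 RPKM (SD, n = 6) to 2.43 ± 0.977 (SD, n = 3) in PH-failure, by 0.79 (limma adjusted p = 0.00787). MAF also rose by 0.57 in PH-healthy (limma adjusted p = 0.0261). TYROBP rose by 0.68 (limma adjusted p = 0.028) in PH-failure. GRB2 rose by 0.45 (limma adjusted p = 0.0124) in PH-healthy and by 0.32 (limma adjusted p = 0.04996) in PH-failure. Without PH-failure replicate 3, 3 of the 11 were called in PH-failure (CSF1, CSF1R and MAF). The second ligand IL34 differed by 0.17 and -0.17 (limma adjusted p = 0.448 and 0.428). SPI1, which encodes the macrophage factor PU.1, differed by 0.24 and 0.19 (limma adjusted p = 0.252 and 0.382). IRF8, a monocyte and dendritic cell factor, differed by -0.38 and -0.36 (limma adjusted p = 0.184 and 0.213). Under quantile normalization 3 of the 11 were called in PH-failure and 2 in PH-healthy, and IL34 in PH-failure and SPI1 in both groups changed sign (-0.12, -0.06 and -0.09).

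Resident macrophage markers were called higher for 6 of 10 tested genes in PH-failure and 3 of 10 in PH-healthy, the latter near the share over all tested genes. Of the 10, 3 met the minimum through the hypertensive groups, MERTK and VSIG4 among them, and the other 7 held 4 and 2 of the calls. The mannose receptor MRC1 went from 1.73 ± 0.877 RPKM (SD, n = 6) to 3.98 ± 1.05 (SD, n = 3) in PH-healthy and 5.56 ± 3.18 (SD, n = 3) in PH-failure. It rose by 0.90 and 1.22 (limma adjusted p = 0.0313 and 0.0106). The scavenger receptor STAB1 rose by 0.63 and 0.71 (limma adjusted p = 0.0109 and 0.008) and the complement receptor VSIG4 by 0.76 and 1.09 (limma adjusted p = 0.0496 and 0.0133). Without PH-failure replicate 3, a check chosen after seeing the data, 1 of the 10 was called in PH-failure, STAB1. Quantile normalization left 2 calls in PH-failure and 0 in PH-healthy, and the list's medians of 0.87 and 0.45 became 0.56 and 0.18.

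Monocyte and recruited macrophage markers were called for 3 of 10 tested genes in PH-failure and 0 of 10 in PH-healthy. The difference between these counts was not tested, and 0 of 10 were called between the hypertensive groups, where 1 of all tested genes was. The share in PH-failure was near that over all tested genes, and 3 of the 10 met the minimum through the hypertensive groups. Among them the monocyte chemokine CCL2 rose by 1.10 (limma adjusted p = 0.0169) and the Fc receptor FCGR1A by 0.78 (limma adjusted p = 0.0345). Of the 10, 1 passed without PH-failure replicate 3 and 1 under quantile normalization, and neither CCL2 nor FCGR1A passed in those fits. CCR2, the receptor for CCL2, lay below the minimum, at 0.231, 0.580 and 0.614 RPKM on average at low PAP, in PH-healthy and in PH-failure.

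Among genes of phagocytosis and the lysosome, 8 of 14 were called in PH-failure and 2 of 14 in PH-healthy, where the share was below that over all tested genes. Of the 14, 2 met the minimum through the hypertensive groups (MERTK and TREM2), and the other 12 held 6 and 2 of the calls. The receptor kinase AXL, which binds dying cells through GAS6, rose by 1.04 in PH-failure and 0.94 in PH-healthy (limma adjusted p = 0.00333 and 0.00419). The lysosomal protease LGMN rose by 0.66 and 0.55 (limma adjusted p = 0.00895 and 0.0165). When PH-failure replicate 3 was left out, AXL was the 1 gene of 14 called in PH-failure, and under quantile normalization 4 of 14 were.

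The C1 complex and its partners were called for 10 of 13 genes in PH-failure and 0 of 13 in PH-healthy. The shares of all tested genes called higher were 28% and 26.6%. Between the hypertensive groups 0 of 13 were called, where 1 of all tested genes was. Of the 13, 4 met the minimum through the hypertensive groups (C2, C3AR1, C5AR1 and CR2), and the other 9 held 6 and 0 of the calls. SERPING1, the C1 inhibitor, rose by 0.73 in PH-failure (limma adjusted p = 0.0172) and differed by 0.01 in PH-healthy (limma adjusted p = 0.987). Of the proteases that C1q binds, C1R differed by 0.46 in PH-failure (limma adjusted p = 0.0867) and by -0.51 in PH-healthy (limma adjusted p = 0.0611). In PH-healthy C1R was called lower under quantile normalization (-0.70, limma adjusted p = 0.0243), median-ratio scaling (-0.72, 0.0161) and non-mitochondrial scaling (-0.60, 0.0416). C1S rose by 0.58 in PH-failure (limma adjusted p = 0.0378), a call lost under each of those 3 scalings, and differed by -0.31 in PH-healthy (limma adjusted p = 0.228). Without PH-failure replicate 3, 3 of 13 were called (SERPING1, C2 and C3), C2 being 1 of the 4 above. Quantile normalization and median-ratio scaling each left 2 of 13 higher calls in PH-failure, and under both SERPING1 in PH-healthy turned to -0.09 and -0.21. In the CD14 pathway 3 of 5 genes were called in PH-failure, CD14 with its partner TLR4 (0.49, limma adjusted p = 0.0158) and the adaptor MYD88 (0.38, limma adjusted p = 0.0246), and 0 of 5 without that library. Quantile normalization also left 0 of 5, and TLR4 in PH-healthy, at 0.11 with RPKM as deposited, then stood at -0.18.

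Of 10 markers shared by leukocytes, 3 were called higher and 1 lower in PH-failure, and 2 higher in PH-healthy, shares near those over all tested genes for the higher calls. CYBB was the 1 gene called higher in PH-failure when replicate 3 was left out. PTPRC, which encodes CD45, was 3.83, 4.42 and 4.34 RPKM at low PAP, in PH-healthy and in PH-failure, and differed by 0.17 and 0.15 from low PAP (limma adjusted p = 0.397 and 0.448), with both signs reversed under quantile normalization (-0.13 and -0.17). CYBB, a subunit of the phagocyte oxidase, rose by 0.84 and 0.94 (limma adjusted p = 0.00683 and 0.00506). CD52 fell by 0.92 in PH-failure (limma adjusted p = 0.0327), a call lost without PH-failure replicate 3 (-0.54, limma adjusted p = 0.183). Of 7 T and NK cell markers 0 were higher and 1 was lower in each group, TRAC, which fell by 0.38 and 0.45 (limma adjusted p = 0.0452 and 0.0239). Its PH-failure call was lost without PH-failure replicate 3 (-0.41, limma adjusted p = 0.094). Under quantile normalization 3 of the 7 were called lower in PH-failure, where 1418 of all tested genes were. Median-ratio scaling gave 2 of the 7, where 1681 of all tested genes were called lower. In PH-healthy 1 of the 7 was called lower under either scaling.

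Markers of other cell types in the wall were called in the same comparisons. Of the lymphatic endothelium list 4 of 5 were called in PH-failure and 2 of 5 in PH-healthy, among them PROX1 (1.16 and 1.22, limma adjusted p = 0.00295 and 0.00182), whereas LYVE1 of the same list did not pass. Of the 5, 2 met the minimum through the hypertensive groups (FLT4 and MMRN1), and the other 3 held 2 and 1 of the calls. Summed markers of blood endothelium were 74.3 to 143 RPKM at low PAP and 145 to 192 RPKM in PH-failure, with 4 of 6 called and 1 of 6 without PH-failure replicate 3. Fibroblast markers were 372 to 564 RPKM and 571 to 935 RPKM, again with 4 of 6 called and 3 of 6 without that library. Of the smooth muscle and pericyte list 4 of 5 were called in PH-failure and 2 of 5 without that library. Of the 5, 1 met the minimum through the hypertensive groups (CSPG4). The other 4 held 3 of the calls in PH-failure, and 2 without that library. For the lymphatic list 4 of 5 were called without PH-failure replicate 3. In PH-healthy the sums were 130 to 149 RPKM for blood endothelium and 413 to 730 RPKM for fibroblasts, both overlapping low PAP. The blood endothelium, fibroblast and smooth muscle lists had 3 of 6, 3 of 6 and 2 of 5 genes called higher in PH-healthy. Of 6 cardiomyocyte genes 0 were higher and 1 was lower in PH-failure, TNNI3, whose call was lost without replicate 3 (-0.41, limma adjusted p = 0.148). In PH-healthy 1 was higher, MYH7 (0.50, limma adjusted p = 0.0460), and 1 lower, TNNI3. The MYH7 call was lost under each of the 3 other scalings, and both TNNI3 calls under quantile normalization. Quantile normalization called 2 other genes of the 6 higher in PH-healthy, and the other scalings called 0 higher there. None of the tested markers of neutrophils (2), dendritic cells (1), mast cells (1), adipocytes (3) or red cells (3) was called in either group with RPKM as deposited, but PH-failure replicate 3 held the largest adipocyte sum, 1028 RPKM. Of these, 1 neutrophil and 1 red cell marker met the minimum through the hypertensive groups. Under each of the 3 other scalings 1 of the 3 adipocyte markers was called lower in PH-healthy, where 1278 to 1861 of all tested genes were. The 4 B cell markers in the table had at most 0.988 RPKM in sum, and no marker of any list was at 0 in all libraries. The part of these cells in the results was not tested.

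The genes whose levels ran closest to the mean of the 10 over the 12 libraries were DEGS1 (r = 0.971), SVEP1 (0.965), CCR1 (0.965), CDH11 (0.962) and CCDC82 (0.960). On deviations from group means they were CAP1 (r = 0.959), SPRY1 (0.952), SVEP1 (0.945), ARPC5 (0.943) and DEGS1 (0.937). Closest to CSF1R on deviations was CTSC (r = 0.931), and closest to CD163 was RABGEF1 (r = 0.981). They were selected as the highest of all tested genes, so high values are built into the choice.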

How the data were processed

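RNA of the right ventricle of 12 steers was extracted with Trizol, and libraries followed standard Illumina methods, per the labels' protocols. The authors deposited RPKM per gene and library, per the file headers. The authors also deposited a signed fold score between high and low PAP with its p-value and false discovery rate. Their test, aligner, counting, use of strand and build were not given in the sources used here. RPKM were analysed as log2(RPKM + 1) with limma 3.58.1 in R 4.3.3 (trend and robust moderation), in 1 model of 3 groups, with Benjamini-Hochberg adjustment over 11374 genes at 0.05. Whole reads were recovered from the RPKM steps in all 11374 genes within 0.05 reads (median 370 reads). limma-voom on these reads, 1 of 26 alternative fits, called 7 of the 10 genes in PH-failure and 3 in PH-healthy. The read recovery and the limma fit were tested on simulated data. The other alternatives were scalings, pseudocounts, filters, added terms and left-out animals. Depth bears on counting error only. Separate animals were the replicates, and same-numbered animals were not paired (correlation of their deviations -0.257 to 0.193).

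The 10 genes, the lists and the tests were chosen with earlier results of these data known. Named genes were the 10, the CSF1 list, and up to 4 called genes per list with the smallest p. C1R, C1S, C3, C3AR1, PTPRC and CCR2 were named after their values were seen. Of 158 listed symbols, 146 were in the table. Promoter sequences were not analysed here. A called gene of the monocyte list is not reported here by name.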

Additional observations from a re-analysis of the deposited data

Results flagged for a closer look

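In 17 sets of 6 low PAP values, 3 held 1 animal far from the other 5, where chance gives about 1 in 20. LYVE1 was 11.3 RPKM in low PAP replicate 6, against at most 4.81 RPKM in the others. The ratio of LYVE1 to CSF1R was 2.49 in the same animal. The ratio of C1QA to C1QB was 1.38 in low PAP replicate 4.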

How the results depend on the processing

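With 3 animals in each hypertensive group, single animals decided many calls, and the low reads of CSF1 (from 13) limit its precision. CSF1R and CSF1 kept their calls in PH-failure against low PAP in all 26 alternative fits. C1QA was lost in 15, C1QB in 13 and C1QC in 14 of the 26, CD68 in 4 and CD14 in 3. Where a value changed, the cause was not tested.

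Of the 10 genes, the 7 called in PH-failure became 2 under quantile normalization, 4 under median-ratio scaling, 4 under non-mitochondrial scaling, 4 without a filter on low values, 4 with only the 2 groups compared and 3 in the fit that includes the adipocyte score. They ranged from 2 to 7 when 1 animal was left out. The 3 called in PH-healthy became 1 under quantile normalization and 4 with only the 2 groups compared. They ranged from 1 to 4 when 1 animal was left out. The 6 called with both groups together became 3 under quantile normalization and ranged from 4 to 7. Over all genes, the 3848 calls in PH-failure became 2551 under quantile normalization and ranged from 1540 (without PH-failure replicate 3) to 4669 (without low PAP replicate 6) with 1 animal left out; without PH-failure replicate 2 they were 2367. The 3951 in PH-healthy became 1187 with the adipocyte score and ranged from 1890 (without PH-healthy replicate 1) to 4643 (without low PAP replicate 6); without PH-healthy replicates 2 or 3 they were 2383 and 2248. The 1 gene called between the hypertensive groups became 0 by limma-voom, with the adipocyte score or the library series added to the model and with only the 2 groups compared, became 2 without low PAP replicates 2 and 6 together, and ranged from 0 to 4.

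The replicate numbers did not pair animals, so the fit with the replicate number as a block is given here once. With the replicate block, 1379 genes were called in PH-failure, 1834 in PH-healthy, 0 between them and 3027 with both groups together. Of the 10 genes, 2, 1 and 2 were called in PH-failure, in PH-healthy and in both together. AIF1 with both groups together was -0.0222 in that block fit.

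Small uncalled differences changed sign. LYVE1 in PH-healthy was -0.28 under quantile normalization, -0.14 under median-ratio scaling, -0.0391 under non-mitochondrial scaling, -0.00826 with the library series and -0.22 with the adipocyte score, and -0.29 to 0.31 with 1 animal left out. AIF1 in PH-healthy was 0.13 with the adipocyte score and -0.35 to 0.14 with 1 animal left out. With both groups together AIF1 was -0.11 under quantile normalization, -0.0917 under median-ratio scaling, -0.0335 without low PAP replicates 2 and 6 and -0.0263 to 0.23 with 1 animal left out, and LYVE1 was -0.0114 under quantile normalization. Between the hypertensive groups, the adipocyte score gave CD68 -0.0638, CD14 -0.18, C1QA -0.0906 and C1QC -0.0301. With 1 animal left out, CSF1 ran there from -0.0164 to 0.33, CD163 from -0.22 to 1.24 and CD14 from -0.0443 to 0.72.

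Among the ratios, 29 of 286 alternative values changed sign, and the smallest adjusted p of the exact permutation tests under any alternative was 0.1875. With a pseudocount of 0.1, CSF1 to CSF1R in PH-failure was 0.38 and CD14 to CSF1R in PH-healthy 0.0637. With 1 animal left out, the log2 ratio differences that changed sign ran as follows. In PH-failure against low PAP, CSF1 to CSF1R ran from -0.269 to 0.00115, CD163 to CD68 from -0.173 to 1.03, CD14 to CSF1R from -0.31 to 0.169 and C1QA to C1QB from -0.114 to 0.0317. In PH-healthy against low PAP, CSF1 to CSF1R ran from -0.145 to 0.362, CD163 to CD68 from -0.258 to 0.509, CD14 to CSF1R from -0.0917 to 0.0431 and C1QC to C1QB from -0.0154 to 0.0866. Between the hypertensive groups, CSF1 to CSF1R ran from -0.469 to 0.0387, CD163 to CD68 from -0.306 to 0.894, LYVE1 to CSF1R from -0.33 to 0.568, CD14 to CSF1R from -0.302 to 0.177 and AIF1 to CSF1R from -0.179 to 0.0307.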
